A study of Homo sapiens with 68 samples.

Results

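TLC-CLIP libraries of the RNA-binding protein hnRNPA1 made with PAGE, the polyacrylamide gel electrophoresis that separates crosslinked RNA-protein complexes by size, were set against libraries made without it. The members were the 2 libraries titled hnRNPA1_50k_lowRNase (with PAGE) and the 2 titled hnRNPA1_50k_noPAGE, 4 of the 68 libraries of the series, chosen by title. All 4 came from HEK293T, an established human embryonic kidney line. All shared UV crosslinking, the hnRNPA1 antibody 4B10, 50000 cells and 0.005 U of RNase, and the omitted gel is the only difference that the labels give. The labels do not say whether replicates were separate cultures, so the tests measure the spread between libraries, which may be technical. For each gene identifier, 2 quantities were compared: how many peaks were listed and which share of the library's read numbers those peaks held.

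hnRNPA1 is an abundant, mainly nuclear protein that binds pre-mRNA, mostly in introns, and takes part in splicing, in the processing of some microRNA precursors and in RNA export. In CLIP, ultraviolet light joins a protein to the RNA it touches, the protein is immunoprecipitated, and a gel run under denaturing conditions is the usual step that separates its complexes from free RNA and from complexes of other sizes. Human mitochondrial DNA is transcribed on both strands inside the organelle into ribosomal, messenger and transfer RNAs. Small nuclear and nucleolar RNAs are short, stable and abundant RNAs that lie within protein complexes of their own.

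The 4 peak lists held between 499537 and 523402 peaks each. Every peak carries a number, at least 4, that was read as the reads over that peak. The sum of these read numbers was 7558564 and 7121272 with PAGE and 11473575 and 12349790 without it, so values are given in ppm, parts per 1000000 of a library's sum, or as percent of it. No source used here gives the sequenced depth. Peaks in 16717 identifiers were listed in at least 1 of the 4 libraries, and 0 of these identifiers could be matched to a gene name, so genes are given by position on hg19 and not by symbol. The defining markers of HEK293T could not be looked up for the same reason. RNA classes were set by position: the mitochondrial chromosome by strand, and nuclear identifiers by the span of their peaks over all 68 libraries. Neighbouring peaks often repeat the same reads, so a second measure kept the highest read number of each cluster, a cluster being peaks less than 30 nt apart.

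Mitochondrial RNA was the only class by position whose summed share of read numbers was higher without PAGE. Shares are of a fixed total, so its rise lowers the share of every nuclear class. The mitochondrial share of all read numbers was 1.99% and 1.5% in the libraries with PAGE and 24.2% and 24.5% in those without. The groups did not overlap, and the mean went from 1.75% ± 0.342 to 24.4% ± 0.268 (SD, n = 2 each), 13.9-fold higher. With 2 libraries a group an exact two-sided permutation test cannot go below p = 0.333, which it gave here. The level depended on the repeated reads. With the highest read number of each cluster the share was 0.583% and 0.533% with PAGE against 5.72% and 5.66% without, 10.2-fold higher. By that measure mitochondrial RNA was not the only class that was higher. Nuclear identifiers spanning above 400 and up to 3000 nt went from 0.473% and 0.487% to 0.571% and 0.556%, 1.17-fold higher. Those spanning above 3000 and up to 20000 nt were 1.05-fold higher. Nuclear identifiers of longer spans and those of at most 400 nt were lower. The lists held 74 and 71 mitochondrial peaks with PAGE and 151 and 159 without. Of these, 16 and 14 with PAGE and 68 and 70 without were under 20 nt wide. Counted as clusters, the mitochondrial share of all clusters was 1.15-fold higher. Reads per mitochondrial place, and the number of narrow peaks they were split into, differed more than the number of places.

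Libraries made from the same protein with other changes to the protocol stood beside these. The 2 libraries without PAGE that had an added RecJ step, an exonuclease digestion, held 22.3% and 23.2% mitochondrial read numbers. The 2 libraries titled noUV, taken to lack crosslinking, held 24.0% and 23.8% although they went through PAGE. The 2 with neither crosslinking nor PAGE held 34.9% and 36.4%. By cluster maxima, the libraries without crosslinking (13.2% and 12.2% with PAGE, 14.9% and 14.0% without) lay above the crosslinked libraries without PAGE (5.72% and 5.66%).

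**Figure D1:**
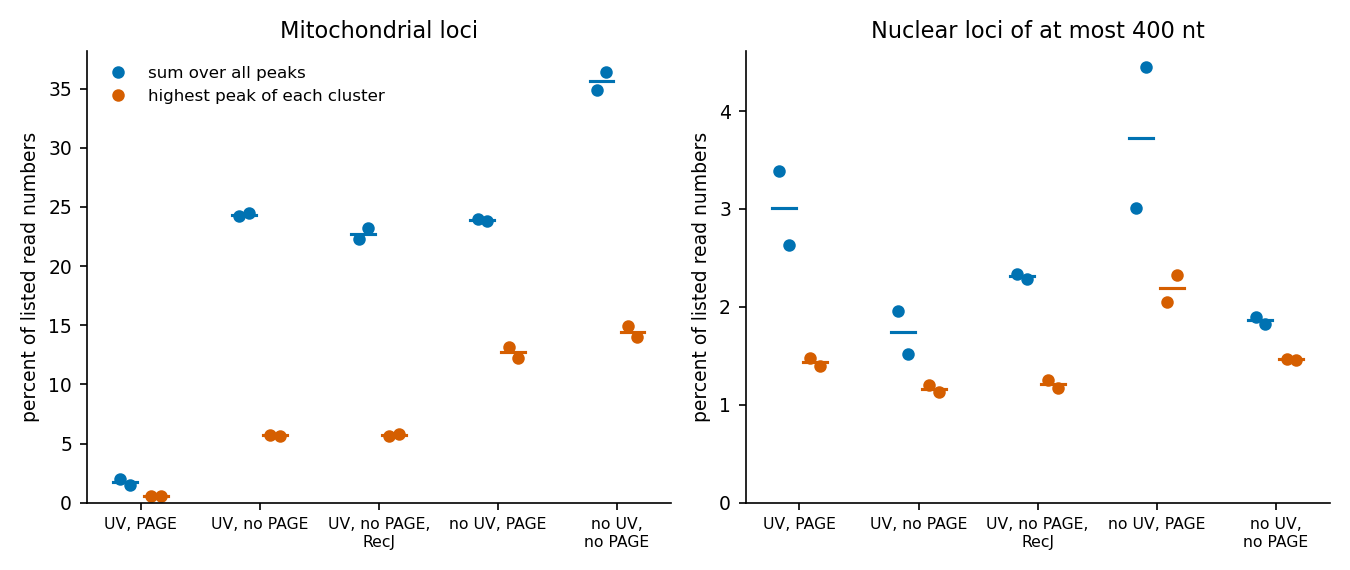
Percent of listed read numbers (vertical axis) in mitochondrial loci (left) and in nuclear loci of at most 400 nt (right), for 5 hnRNPA1 library types of 2 libraries each. Points are libraries, bars are means, blue is the sum over all peaks and orange the highest peak of each cluster. On the left the libraries with UV and PAGE lie at 1.99% and 1.5%, below every other library type by either measure.

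Of 25 mitochondrial identifiers listed in the 4 libraries, 18 passed the minimum of 10 ppm on average and were tested. Of these, 6 were under 10 ppm on average with PAGE, so they passed the minimum only through the libraries in which they were high, and their calls are partly fixed by that minimum. The other 12 were at 10 ppm or more in both groups. All 12 were higher without PAGE by limma at an adjusted p under 0.05, where 1.97% of the 8434 identifiers at that level in both groups were called higher (2.33% of all 8828 tested). The 12 were again called higher after median centring, over the nuclear sum, and by cluster maxima with either sum. Their median was 3.77 on the log2 scale, against -0.345 over all identifiers tested. These differences, here and below, are of log2(read numbers in ppm + 1), which understates changes of low values. The other 7 mitochondrial identifiers fell under the minimum, and all of them were at 19.7 ppm or less in every library.

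One locus on the plus strand, chrM:1673-3203 (ENSG00000210082.2), held most of the mitochondrial reads. It stood at 17344 and 12493 ppm with PAGE and at 216591 and 220604 without. Both libraries without PAGE were far above both with it, a 14.7-fold rise (log2 difference 3.89 ± 0.078 SE, limma adjusted p = 9.14e-27). By cluster maxima the log2 difference was 3.44. This locus was the most covered identifier in both libraries without PAGE, with 21.7% and 22.1% of all read numbers in them. It was listed as 17 and 16 peaks with PAGE and as 45 and 48 without.

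Within that locus the gain was uneven. The region chrM:2200-2308 held the most reads without PAGE, with a highest read number of 9620 and 8007 with PAGE and 112786 and 117408 without, 10.1-fold higher in ppm of cluster maxima. The first listed region, chrM:1675-1794, went from 10247 and 7883 to 92674 and 94048, 7.96-fold in ppm. The next, chrM:1827-1920, was 6.40-fold higher. At other places the change was in what was listed and not only in level. The regions chrM:1994-2160 (51679 and 54721 reads) and chrM:2791-2900 (63642 and 68871 reads) were listed only in the libraries without PAGE. The region chrM:3141-3182 was listed only in those with PAGE, at 2625 and 1742 reads, and chrM:2436-2441 only in replicate 2 with PAGE, at 1564 reads. A region that is not listed has no peak that the authors' caller reported; it is not a measured 0, so no fold is given for these.

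**Figure D2:**
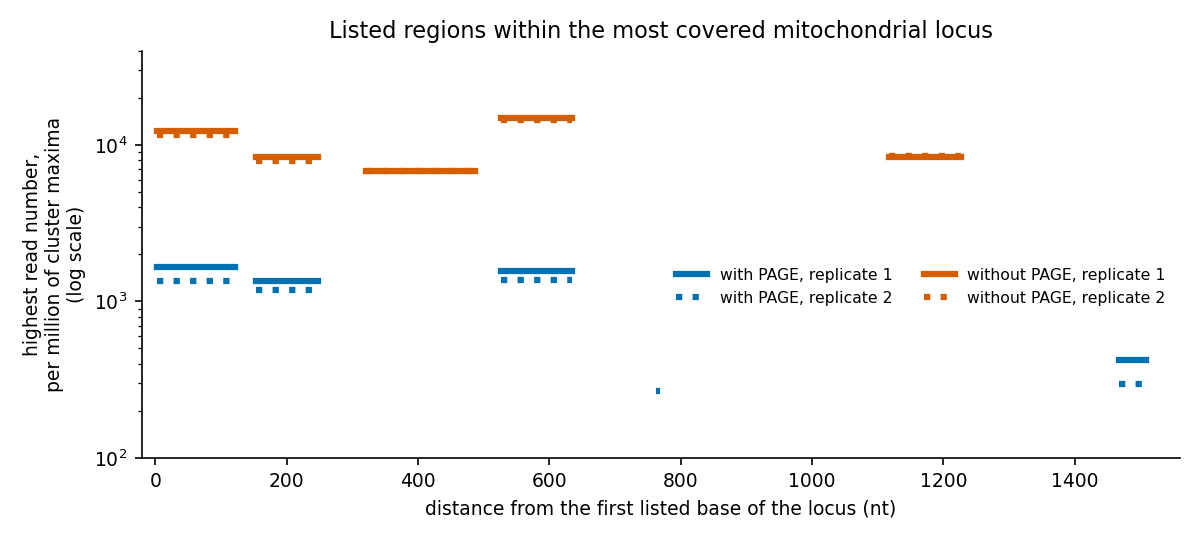
Highest read number of each listed region, in ppm of cluster maxima (vertical axis, log scale), against the distance in nt from the first listed base of the most covered mitochondrial locus. Each bar spans a region; blue bars are libraries with PAGE, orange bars those without, solid for replicate 1 and dotted for replicate 2. Regions listed in both protocols lie 6.40-fold to 10.1-fold higher without PAGE, 2 regions appear in orange only and 2 in blue only, 1 of these in replicate 2 alone.

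The second most covered mitochondrial locus, chrM:651-1566 (ENSG00000211459.2), lies just upstream on the same strand. It went from 1891 and 1933 ppm to 18365 and 17666, a 9.42-fold rise (log2 difference 3.24 ± 0.045 SE, adjusted p = 5.17e-31). Its 3 regions were 6.35-fold to 8.64-fold higher in ppm of cluster maxima. The groups did not overlap at either locus.

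The minus strand, which carries few mitochondrial genes, rose as well. Its share of all read numbers was 0.0418% and 0.0398% with PAGE and 0.353% and 0.371% without, 8.86-fold higher, where the plus strand was 14.1-fold higher. Nearly all of this came from chrM:14245-14674, at 406 and 383 ppm with PAGE and 3494 and 3682 without (log2 difference 3.18 ± 0.050 SE, adjusted p = 1.21e-29). The other minus-strand locus that was tested, chrM:15957-16011, rose least of the 18, from 8.47 and 8.29 to 17.1 and 19.6 ppm.

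The remaining mitochondrial loci tested were much less covered and rose as well. Over the 16 plus-strand loci tested, the fold ran from 3.93 to 29.1. The highest was chrM:10472-10669, at 3.84 and 3.09 ppm with PAGE and 95.7 and 106 without. The lowest was the short locus chrM:1603-1672, between the 2 most covered loci, at 23.7 and 12.1 with PAGE and 61.4 and 78.9 without. Between these, chrM:12338-14147 rose from 31.1 and 33.6 to 465 and 470 ppm, 14.5-fold. Values with PAGE and without were apart at every one of these loci, where 5.14% of all identifiers tested were apart in the upward direction. At loci under 10 ppm with PAGE this is partly fixed by the minimum.

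Across the genome, most nuclear identifiers held a smaller share without PAGE. Of 8828 identifiers tested, 206 (2.33%) were called higher and 4982 (56.4%) lower at an adjusted p under 0.05. The values of the 2 groups did not overlap for 454 (5.14%) in the upward and 6547 (74.2%) in the downward direction. These shares are of a fixed total, and the mitochondrial rise lowers every other share. After centring each library on its median, 745 (8.44%) were higher and 709 (8.03%) lower. Of the 4982 called lower by share, 709 were also lower after centring and 8 were higher; all 206 called higher by share remained higher. The highest read number of each cluster gave 533 (5.71%) higher and 970 (10.4%) lower of 9337.

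Apart from this shift, differences between protocols were small at most nuclear identifiers, but larger than those between replicates. Over the 8810 nuclear identifiers tested, centred on the median, the median absolute log2 difference was 0.117 between the replicates with PAGE and 0.122 between those without. Between protocols it was 0.186 to 0.197. Differences of more than 1 on the log2 scale were found for 0.216% and 0.114% of identifiers between replicates and for 1.33% to 1.45% between protocols.

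**Figure D3:**
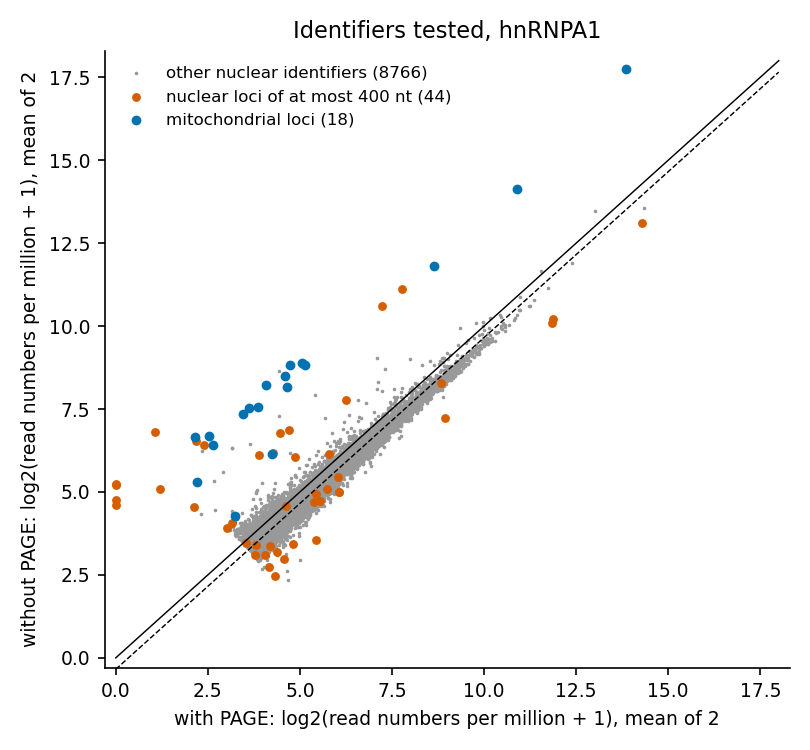
Mean share of 2 libraries without PAGE (vertical axis) against that with PAGE (horizontal axis), both as log2(read numbers in ppm + 1), for the 8828 identifiers tested. Blue points are the 18 mitochondrial loci, orange the 44 nuclear loci of at most 400 nt, grey all others; the solid line marks equal shares and the dashed line the median difference of -0.345. All blue points lie above the solid line, the orange points fall on both sides, and the grey cloud follows the dashed line.

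Above 400 nt, the centred direction of read share differed with the span of the gene's peaks. Among identifiers spanning above 400 and up to 3000 nt, 26 were higher and 5 lower of 98 tested, with a median of 0.174. For spans above 3000 and up to 20000 nt, 253 were higher and 57 lower of 1978 (median 0.076). For spans above 20000 and up to 100000 nt, 337 were higher and 308 lower of 4496. Above 100000 nt, where long introns lie, 91 were higher and 322 lower of 2191 (median -0.051), against 8.44% higher and 8.03% lower over all. By cluster maxima without centring, the same order held, from 22 higher and 3 lower of 109 in the shortest of these classes to 82 higher and 432 lower of 2251 in the longest. The loci of at most 400 nt did not continue this order. Calls by share of listed peaks ran the other way for spans above 3000 nt, as given with those results. The summed peak shares of these classes did not. From the shortest class to the longest they were 1.19-fold, 1.03-fold, 0.988-fold and 1.0-fold without PAGE against with it.

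Nuclear loci of at most 400 nt, where small nuclear and nucleolar RNA genes would fall, split into a rising and a falling part. This class held 295 identifiers, defined as spanning at most 400 nt and listed in at least 20 libraries. Its share went from 3.39% and 2.63% with PAGE to 1.96% and 1.52% without, a mean of 3.01% ± 0.537 against 1.74% ± 0.313 (SD, n = 2 each; exact permutation p = 0.333, the smallest possible). That difference lay in 3 identifiers at 2 places. Without them, the remaining 292 identifiers went from 0.254% and 0.279% to 0.791% and 0.482%, 2.39-fold higher, and the class as a whole was 1.42-fold higher in its share of listed peaks. The rise in read share in turn lay mostly at 1 place, chr11:62609095-62609283, listed under 2 overlapping identifiers. Without it too, the remaining 290 identifiers held 0.204% and 0.256% with PAGE and 0.265% and 0.248% without (1.12-fold), and the groups overlapped.

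The most covered of these loci, chr6:52860439-52860748 on the plus strand (ENSG00000202198.1), fell. It stood at 24072 and 15968 ppm with PAGE and at 8764 and 8792 without. Both libraries without PAGE lay below both with it (log2 difference -1.16 ± 0.089 SE, adjusted p = 1.33e-11; -0.81 after centring and -0.51 by cluster maxima). The second place, chr17:8076573-8076910 on the minus strand, is listed under 2 overlapping identifiers. Their most covered sites overlap and held similar read numbers, so the same reads appear to be listed under both. These were 9307 and 7598 with PAGE and 4529 and 4200 without for the shorter identifier. For the longer they were 9732 and 8172 with PAGE and 4797 and 4473 without. One of them, chr17:8076803-8076907 (ENSG00000200463.1), stood at 2353 and 4988 ppm with PAGE and 1567 and 631 without. The other stood at 4950 and 2573 with PAGE and 1384 and 968 without. Summed, the place held 7303 and 7561 ppm with PAGE and 2951 and 1598 without, 3.27-fold higher with the gel. That sum can count the same reads more than once. Both identifiers were called lower without PAGE (log2 differences -1.78 and -1.62). By cluster maxima the log2 difference was -1.29 for each of them. Another short locus, chr20:36603600-36603680, went from 318 and 660 ppm to 89.9 and 211 (log2 difference -1.73, adjusted p = 1.61e-07).

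Other short loci rose steeply. Of 44 tested, 20 were called higher, 20 lower and 4 neither. That is 45.5% each way, against 2.33% higher and 56.4% lower over all identifiers, so the lower count lies below the background. After centring the shares of the 44 were 45.5% higher and 31.8% lower, against 8.44% and 8.03%. Of the 20 higher, 11 were under 10 ppm on average with PAGE, and of the 20 lower, 7 were under 10 ppm without it, so these passed the minimum through 1 group alone. Among the 23 at 10 ppm or more in both groups, 9 were higher and 13 lower, against 1.97% and 57.2% of the 8434 identifiers at that level in both groups. After centring 9 were higher and 9 lower, against 8.13% and 8.17%. Some places are listed under overlapping identifiers, so these are not 44 separate RNAs, and sums over them can count the same reads more than once. The 20 higher loci held 739 and 523 ppm in sum with PAGE and 6571 and 3454 without. The 20 lower loci held 32654 and 25249 with PAGE and 12407 and 11185 without. The most changed, chr2:175422732-175422801 on the minus strand, went from 0.794 and 1.40 ppm to 99.6 and 125, a 102-fold rise (log2 difference 5.76 ± 0.229 SE, adjusted p = 7.68e-19). The value with PAGE rested on 6 and 10 reads at its most covered site, so that fold is imprecise. The most covered of the rising loci, chr11:62609095-62609283 on the minus strand, is again listed under overlapping identifiers. Summed, it stood at 505 and 227 ppm with PAGE and 5265 and 2337 without, 10.4-fold higher. In that sum, which can count the same reads under both identifiers, the 2 libraries without PAGE differed more than 2-fold. They still lay above both with PAGE. By cluster maxima the libraries without PAGE lay closer together, at 1055 and 858 ppm for the shorter identifier and 1061 and 859 for the longer. With PAGE these values were 132 and 113, and 127 and 120 (log2 differences 2.95 and 2.94). A further 4 of the 20 rising loci were listed at 0 in both libraries with PAGE, so no fold is given for them.

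**Figure D4:**
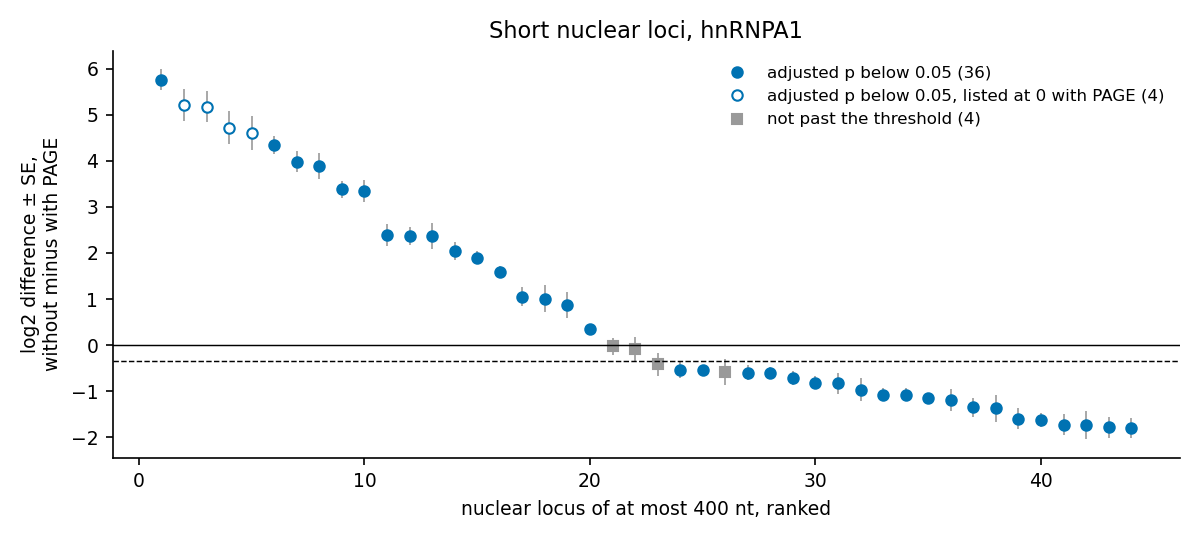
Log2 difference of read share, without minus with PAGE (vertical axis, with its SE from the fit), for the 44 nuclear loci of at most 400 nt that were tested, ranked (horizontal axis). Filled circles passed an adjusted p of 0.05, open circles passed it but were listed at 0 with PAGE (their height depends on the added 1), squares did not pass; the dashed line is the median of all identifiers. The points run from 20 loci called higher on the left, 11 of them under 10 ppm with PAGE, to 20 called lower on the right. Over all identifiers tested, 2.33% were called higher and 56.4% lower.

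Among longer nuclear genes the largest rise was at chr3:180735264-181529134 on the plus strand, at 21.8 and 19.8 ppm with PAGE and 337 and 463 without (19.2-fold; log2 difference 4.18 ± 0.111 SE). The locus is long, but it was listed as 3, 3, 4 and 8 peaks. Its most covered site, chr3:180949522-180949593, held 60 and 51 reads with PAGE and 1303 and 1440 without. This rise therefore belongs to a narrow place and not to the gene as a whole. The locus overlaps 1 other identifier on its strand.

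Among the named longer genes, those with a mean of at least 50 ppm and groups that did not overlap, some falls came with fewer listed peaks and some did not. The largest of these falls was at chr1:8921092-8938749, from 100 and 117 ppm to 49.0 and 45.3 (log2 difference -1.18 ± 0.107 SE, -0.84 after centring). Its listed peaks went from 24 and 29 to 14 and 14. The locus chr17:26941492-26972242 went from 125 and 119 ppm to 47.7 and 60.2, and from 57 and 53 peaks to 27 and 31 (adjusted p for peak share 0.000175). At chr22:41641635-41682227 the share went from 203 and 222 ppm to 113 and 91.7, with 53 and 63 peaks against 36 and 32. At all 3 loci the groups were apart in both measures. The loci chr1:153902004-153919122, chr17:74553849-74561363 and chr22:38245504-38284361 also fell in read share, by 1.11, 1.05 and 1.04 on the log2 scale, while their peak share did not pass the test (adjusted p = 0.0953, 0.914 and 0.100).

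The most covered nuclear transcripts moved in different directions. The locus chr11:65266513-65273500 on the plus strand held 8539 and 7991 ppm with PAGE and 10466 and 12052 without, 1.36-fold higher (log2 difference 0.44 ± 0.053 SE, adjusted p = 5.91e-08). Its reads were also placed differently. The site chr11:65269011-65269045 was listed only without PAGE (863 and 960 reads), and the site chr11:65271927-65272027 only with it (1294 and 1194 reads). The locus chrX:73040560-73072550 on the minus strand went from 20687 and 20604 ppm to 11535 and 12709, 0.587-fold (log2 difference -0.77 ± 0.048 SE; -0.42 after centring). Its number of peaks, 139 and 134 against 130 and 150, overlapped between the groups. The locus chrX:107965305-107975906 held 2900 and 3120 against 3082 and 3390 ppm and did not pass the test by share (adjusted p = 0.0741), though it was higher by 0.45 after centring (adjusted p = 9.86e-07). Very long genes among the most covered, chr4:20254916-20622099 and chr13:93879120-95058745, fell by 0.50 and 0.59 on the log2 scale, and by 0.15 and 0.24 after centring.

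Whether these changes were larger for hnRNPA1 than for other proteins was tested against hnRNPI, also called PTBP1, a splicing repressor that binds pyrimidine-rich RNA, and RBFOX2, a regulator of alternative splicing. Each had 2 libraries with and 2 without PAGE. Mitochondrial read numbers were higher without PAGE in both, going from 0.349% and 0.350% to 2.04% and 1.78% for hnRNPI (5.46-fold) and from 1.49% and 1.74% to 6.82% and 7.39% for RBFOX2 (4.41-fold). In the interaction fit over these 12 libraries, which subtracts the mean difference of hnRNPI and RBFOX2, 12 of the 18 mitochondrial loci rose more in hnRNPA1 and 0 rose less, where 22.1% of 9521 identifiers were called higher and 2.15% lower. After median centring 11 of the 18 were called higher, with 4.29% called higher and 3.92% lower over all. By cluster maxima 9 were called higher, and 0 lower, with 13.4% called higher and 1.82% lower over all. Of the 12 loci at 10 ppm or more in both hnRNPA1 groups, these counts were 10, 10 and 8. With no test, the hnRNPA1 difference was larger than that of RBFOX2 at 18 of 18 loci and larger than that of hnRNPI at 16 of 18. At chrM:1673-3203 hnRNPA1 exceeded the mean of the others by 1.54 ± 0.190 SE on the log2 scale (adjusted p = 0.000572), and by 1.31 with cluster maxima. At chrM:651-1566 the excess of 0.74 did not pass the test (adjusted p = 0.0803).

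Among the 18 mitochondrial loci tested, the largest interaction was at the short plus-strand locus chrM:580-649. This locus stood at 3.31 and 3.93 ppm with PAGE and 34.1 and 42.6 without. The interaction there was 3.95 (adjusted p = 0.0399), and it did not pass after centring (adjusted p = 0.110) or by cluster maxima (adjusted p = 0.0532). The next among the 18, at the minus-strand locus chrM:14245-14674, passed in all 3 fits. Summed over all peaks, this locus rose by 3.18 in hnRNPA1, while the differences were -0.65 in hnRNPI and -0.61 in RBFOX2. By cluster maxima it rose by 2.47 in hnRNPA1. The interaction was 3.81 ± 0.195 SE (limma adjusted p = 2.07e-06), 3.50 after centring and 2.13 by cluster maxima (adjusted p = 0.00711). The fall in the other proteins was not clear by cluster maxima. Over the minus strand as a class these were 0.649-fold in hnRNPI and 1.03-fold in RBFOX2, with overlapping groups in both. Another minus-strand locus, chrM:5827-5859, fell under the minimum in hnRNPA1, at 3.70 and 6.60 ppm with PAGE and 15.5 and 11.6 without. Its interaction was 3.82 (limma adjusted p = 0.00211), 3.51 after centring (adjusted p = 0.0075) and 2.91 by cluster maxima (adjusted p = 0.0138).

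**Figure D5:**
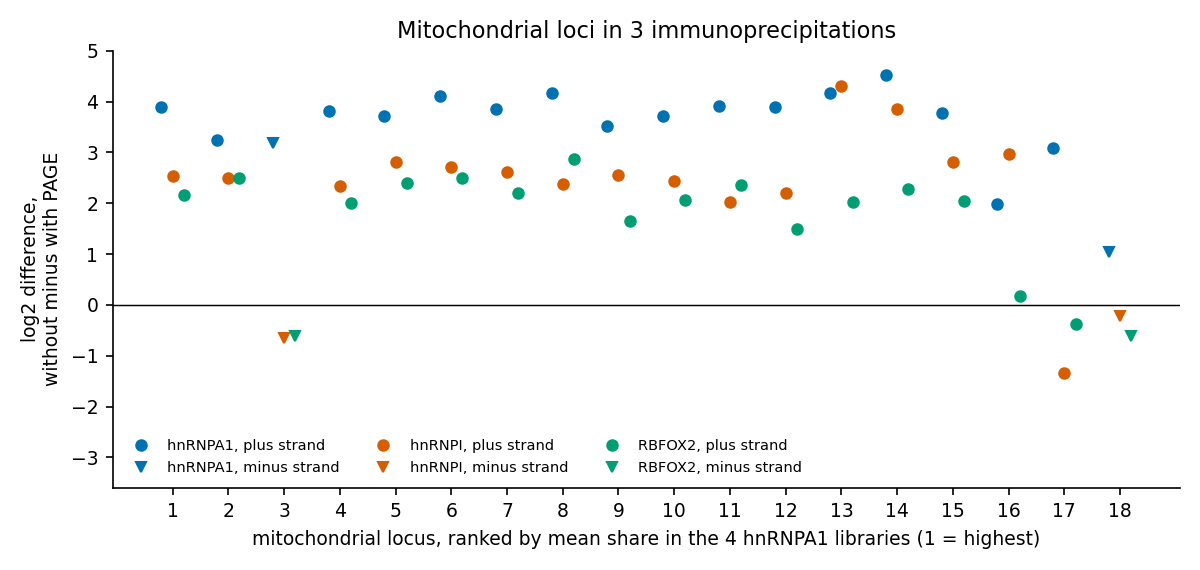
Log2 difference of read share, without minus with PAGE (vertical axis), at the 18 mitochondrial loci tested in hnRNPA1, ranked by their mean share in the 4 hnRNPA1 libraries (horizontal axis), for hnRNPA1 (blue), hnRNPI (orange) and RBFOX2 (green). Circles are plus-strand and triangles minus-strand loci, each a mean of 2 libraries minus a mean of 2. All blue points lie above 0. In these sums over all peaks, the other proteins lie below 0 at both minus-strand loci and at the plus-strand locus chrM:580-649.

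Short nuclear loci also differed between proteins. As a class they were lower without PAGE in hnRNPA1 but 2.18-fold higher in hnRNPI (1.21% and 1.56% to 3.50% and 2.53%) and 3.24-fold higher in RBFOX2 (10.9% and 11.3% to 35.3% and 36.8%). Without the 3 most covered identifiers the class was higher in all 3 proteins, 2.39-fold, 2.20-fold and 3.33-fold. Without the chr11 place as well, it was 1.45-fold higher in hnRNPI (0.631% and 0.955% to 1.30% and 0.994%) and 2.35-fold in RBFOX2, while the hnRNPA1 groups overlapped. Of the 41 short loci in the interaction fit, 7 were called higher and 13 lower in hnRNPA1, against 22.1% and 2.15% over all identifiers, so the higher count lies below the background. After centring 3 were higher and 14 lower, against 4.29% and 3.92%. At the chr17 place, the identifier chr17:8076803-8076907 differed by -1.78 in hnRNPA1, against 0.50 in hnRNPI and 0.07 in RBFOX2. That interaction was -2.07 (adjusted p = 0.0226), and it did not pass without lowRNase replicate 2 (-1.53, adjusted p = 0.128) or without noPAGE replicate 2 (-1.41, adjusted p = 0.129). For chr6:52860439-52860748 the interaction of -0.88 did not pass (adjusted p = 0.0546). For chr11:65266513-65273500 it was 0.99 (adjusted p = 0.000302), with differences of -0.67 in hnRNPI and -0.43 in RBFOX2. At the long locus chr3:180735264-181529134 the interaction of 0.095 did not pass (limma adjusted p = 0.842). The differences there were 4.10 in hnRNPI and 4.08 in RBFOX2. Over all identifiers the interaction gave 2101 higher and 205 lower, and 408 and 373 after centring. Leaving out any 1 of the 4 hnRNPA1 libraries lowered the counts without centring to between 804 and 1144 higher and between 110 and 127 lower.

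The number of listed peaks also moved in both directions. As share of a library's peaks, 360 identifiers (4.29%) were higher without PAGE and 350 (4.18%) lower of 8383 tested. The quartiles of the log2 difference, -0.127 and 0.173, were close to those of the centred read share, -0.162 and 0.183. Both mitochondrial loci with enough peaks, chrM:1673-3203 and chrM:651-1566, were higher (log2 differences 1.25 and 0.75). Genes spanning above 100000 nt gained more often than they lost, 207 against 127 of 2299, while those above 3000 and up to 20000 nt gained less often, 8 against 24 of 1432. These counts rest on limma's intensity trend and on the filter: without the trend 1 was higher and 2 lower, and without the filter 0 and 0 of 16717 passed by limma, with 1783 and 1033 at an unadjusted p under 0.05. They fell to 194 and 160 without lowRNase replicate 2, and to 236 and 254 without noPAGE replicate 2.

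Most identifiers were listed under both protocols. Of 16717, 13114 were listed in all 4 libraries, 377 in both without PAGE and neither with it, and 151 in both with PAGE and neither without. Of the 377, 42 were short loci and 1 was mitochondrial, and none of them exceeded 18.5 ppm on average. Of the 151, 5 were short loci, and the highest mean was 3.21 ppm.

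At the level of sites, peaks of the 4 libraries that overlapped were joined, giving 1019144 sites, of which 242570 were tested. Without PAGE 120 sites (0.0495%) were higher and 51 (0.0210%) lower. Of the 120 higher sites, 46 were mitochondrial and 5 lay in short loci, and of the 51 lower sites 1 was mitochondrial. Of 84 mitochondrial sites tested, 79 had a positive difference, and the share over all sites tested is not given here. Before the filter, 29 mitochondrial sites were listed in both libraries without PAGE and neither with it, and 2 the other way. Over all 1019144 sites these numbers were 43899 and 51989. The sign at such sites is set by the listing, and they can pass the minimum through 1 group alone. Within chrM:1673-3203 the site chrM:2819-2841 was listed only without PAGE (61427 and 68871 reads) and chrM:3151-3182 only with it (2625 and 1742 reads). On the minus strand, chrM:14272-14295 was listed only without PAGE (2604 and 3029 reads). Site calls were fragile: leaving out any 1 library left 0 sites past the threshold by limma, with 6223 to 22977 higher and 10497 to 43422 lower at an unadjusted p under 0.05.

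Peaks of a library overlapped those of its replicate in 54.4% of cases on average (range 50.8% to 57.9%), at 1 nt or more on the same strand. They overlapped those of a library of the other protocol in 49.7% (48.2% to 51.3%). Peaks moved by 1000 nt overlapped in 13.7% and 13.6%. For the 100000 peaks with the smallest p in each library the values were 68.5% and 59.2%. The median peak width was 61 and 60 nt with PAGE and 62 and 61 nt without, values that overlap between the groups.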

How the data were processed

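TLC-CLIP peak lists of hnRNPA1 from HEK293T cells were compared, 2 libraries with and 2 without PAGE, grouped by title. The authors deposited one list per library, without replicates pooled. Per the submitters' processing notes the tools included bcl2fastq, STAR 2.7.3a and UMI-tools 1.0.1, with build hg19; no source used here gives their settings, and CLIPper is known only from the deposited lists' names. The deposited p-value of each peak (largest 0.00745 in these 4 libraries) has no stated adjustment. The deposited peak name ends in a number of unstated meaning, read here as the reads over the peak; since peaks were called per library, a place can be missing because it missed the caller's threshold. No source used here gives read depth, and no count intervals were computed.

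Read numbers were summed per identifier and scaled to ppm, parts per 1000000 of the library's sum; peaks were scaled per 100000. Values were tested as log2(value + 1) with limma 3.58.1 (lmFit, eBayes with trend; R 4.3.3) and Benjamini-Hochberg adjustment over all features tested, with means of at least 10 ppm (identifiers), 2 per 100000 (peaks) or 1 ppm (sites). No replicate block was used. The interaction fit took 12 libraries; hnRNPc was left out because 1 of its libraries listed few peaks. The fits were tested on simulated data. Overlaps used bedtools 2.31.1, and other steps Python 3.11.15.

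Named loci were the 10 called higher and 10 called lower with the largest log2 difference, a mean of at least 50 ppm and groups that did not overlap, the 10 most covered identifiers, the 4 most covered mitochondrial loci and, for sites, up to 5 each way at a mean of at least 20 ppm; further loci of the 2 classes were chosen after their values were seen. The comparison, lists and settings were chosen with earlier results of these data known. No table pairs the identifiers with names (0 matched) and no hg19 genome was used, so gene lists, markers, the planned class of small RNAs by name and motif content were not analysed here; span classes and the short loci left out of their class were chosen after seeing the data.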

Additional observations from a re-analysis of the deposited data

Results flagged for a closer look

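The following results stood out because the difference between libraries without and with PAGE was not the same in hnRNPA1 as in hnRNPI and RBFOX2. Values are the log2 difference in hnRNPA1 minus the mean of the other proteins, from the interaction fit in limma (adjusted p under 0.05), unless stated. Only the named loci were looked at here. They were chosen for large differences or high cover in hnRNPA1, which favours a difference from the other proteins. Over all 9521 identifiers in that fit, 22.1% were called higher and 2.15% lower. For each, the values in the 3 proteins come from separate libraries, and no shared control enters.

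At named mitochondrial loci, the excess in hnRNPA1 was 3.81 at chrM:14245-14674 on the minus strand, 2.04 at chrM:7587-8198, 1.73 at chrM:9208-9959 and 1.64 at chrM:12338-14147. It was 1.54 at chrM:3318-4137, 1.54 at chrM:1673-3203, 1.49 at chrM:4701-5499 and 1.45 at chrM:8612-9198. The 12 called higher among the 18 tested also include chrM:580-649 at 3.95, chrM:14748-15874 at 1.47, chrM:6006-7320 at 1.42 and chrM:10779-12114 at 1.11. With the highest read number of each cluster, chrM:4701-5499, chrM:9208-9959 and chrM:12338-14147 no longer passed (adjusted p = 0.0558, 0.0518 and 0.0674). With peaks of p below 1e-05, chrM:3318-4137 stood at -0.046 (adjusted p = 0.975) and chrM:4701-5499 at 1.33 (adjusted p = 0.0534).

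Named nuclear loci with an excess were chr2:175422732-175422801 at 2.22, chr11:65266513-65273500 at 0.99, chrX:107965305-107975906 at 0.75 and chr13:93879120-95058745 at 0.41. After median centring the last 2 did not pass, at 0.44 (adjusted p = 0.0829) for chrX:107965305-107975906 and 0.10 (adjusted p = 0.493) for chr13:93879120-95058745. Loci lower in hnRNPA1 were chr17:74553849-74561363 at -2.13, the overlapping identifiers chr17:8076803-8076907 at -2.07 and chr17:8076573-8076910 at -1.77, chr1:8921092-8938749 at -0.88 and chr22:41641635-41682227 at -0.39. The call at chr22:41641635-41682227 was lost with no filter (adjusted p = 0.0744), no trend (0.116), the replicate block (0.0767) and peaks of p below 1e-05 (0.0783). It was also lost without lowRNase replicate 1 (0.0747), lowRNase replicate 2 (0.163) or noPAGE replicate 2 (0.202), and over the nuclear sum the value was -0.069 (adjusted p = 0.64). The call at chr13:93879120-95058745 was lost with no trend (adjusted p = 0.0684) and without the same 3 libraries (0.0565, 0.0549 and 0.0674). That at chr17:8076803-8076907 was lost with no filter (adjusted p = 0.0705), no trend (0.0601), the block (0.0516) and peaks of p below 1e-05 (0.0578), and without lowRNase replicate 2 (0.128) or noPAGE replicate 2 (0.129). The locus chr17:74553849-74561363 overlaps 3 other identifiers on its strand, and no source used here says how reads were divided among them. Without lowRNase replicate 1, chr17:8076573-8076910 stood at -1.30 (adjusted p = 0.0722). Without noPAGE replicate 2 it stood at -1.51 (adjusted p = 0.0651).

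The summed share of short nuclear loci was lower in both hnRNPA1 libraries without PAGE than in both with it, and higher in both of hnRNPI and of RBFOX2. The gap to hnRNPA1 was 1.91 for hnRNPI and 2.48 for RBFOX2 on the log2 scale; this difference of a class was not tested. Without the 3 most covered identifiers it was higher in all 3 proteins; without the chr11:62609095-62609283 place as well, the hnRNPA1 groups overlapped.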

How the results depend on the processing

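The direction of the mitochondrial rise held under every alternative run. On the log2 scale it was 3.82, and 3.59 with peaks of p below 1e-05, 1.09 as share of listed peaks, 3.35 by cluster maxima and 3.61 to 4.02 with 1 library left out. Short loci as a class were at -0.79, and at -0.31 by cluster maxima, -0.97 to -0.61 with 1 library left out, but 0.51 as share of listed peaks and 1.21 without their 3 most covered identifiers and 0.17 without these and the chr11 place; the cause was not tested.

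Counts of identifiers by read share (206 higher, 4982 lower) moved with the scaling, to 745 and 709 when median-centred, 791 and 685 over a sum without the 10 top genes and mitochondria, 829 and 582 over the nuclear sum, 533 and 970 by cluster maxima and 835 and 503 by cluster maxima over the nuclear sum. The higher count was 315 with no filter and 95 with a filter 5 times higher. With 1 library left out they were 159 to 185 and 3830 to 4477. By peak share (360 and 350) they were 0 and 0 with no filter, 1 and 2 with no intensity trend, 234 and 197 with peaks of p below 1e-05, 205 and 214 with the replicate number as a block, and 194 to 320 and 160 to 305 with 1 library left out; the higher count was 111 with the higher filter. Sites (120 and 51) gave 261 and 131 with a pseudocount of 5, 55 and 13 with 0.25, 237 and 107 with no filter, 1157 and 617 with the higher filter, 18 and 0 with no trend, 38 and 8 with peaks of p below 1e-05, 33 and 13 with peaks joined under 30 nt apart, 30 lower over the nuclear sum, and 0 to 0 for both with 1 library left out. Without the trend 22936 sites were lower at an unadjusted p under 0.05. The interaction (2101 and 205) gave 408 and 373 when median-centred, 942 higher with peaks of p below 1e-05, 5064 higher over the nuclear sum, 1380 higher by cluster maxima, 333 lower with no filter, and 804 to 1144 and 110 to 127 with 1 library left out. Its value at chrM:3318-4137 was -0.046 with peaks of p below 1e-05. Of the named loci's other values under the alternatives, 439 by read share kept their side of the threshold, 8 gained and 1 lost it; in the interaction these numbers were 351, 13 and 26.

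Replicate and other-protocol overlap were 43.9% and 38.3% when at least 0.5 of the peak had to be overlapped, 63.4% and 56.9% with p below 1e-05, and 68.5% and 59.2% for the 100000 peaks with the smallest p. Median width differed by 1.0 nt, and by 3.5 nt with p below 1e-05. Replicate numbers did not pair the libraries: deviations of same-numbered libraries correlated at -0.0884 over identifiers, and apart from the peak counts above the block moved no count by over 1.5 times. Settings named nuclear sum, cluster maxima over it, cluster maxima for the interaction and all settings of the short loci were chosen after seeing the data. Motif content and small RNAs by name could not be run. Depth is unknown, so a place not listed has no stated limit.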

Other observations

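The libraries titled noUV and those with RecJ were not part of the tests, and their values in ppm of the listed read numbers are given as a description. The second most covered mitochondrial locus, chrM:651-1566, stood at 108477 and 97570 ppm without crosslinking but with PAGE, and at 111751 and 83933 with neither. Both pairs lie above the 18365 and 17666 of the crosslinked libraries without PAGE. The most covered one, chrM:1673-3203, stood at 119100 and 127352 without crosslinking and with PAGE, below the 216591 and 220604 of the crosslinked libraries without PAGE. With neither step it stood at 222462 and 261173.

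Nuclear loci that fell without PAGE did not share one pattern in these libraries. The short locus chr20:36603600-36603680, at 318 and 660 ppm with crosslinking and PAGE, stood at 6.57 and 3.38 without crosslinking and was listed at 0 with neither step. The short locus chr6:52860439-52860748 stood at 17459 and 28134 without crosslinking and with PAGE, a range that overlaps the 24072 and 15968 of the crosslinked libraries with PAGE. The libraries with the RecJ step stood at 128 and 134 for the first and at 14464 and 13695 for the second. The accessions of the libraries without crosslinking form a run of their own, so preparation and crosslinking cannot be told apart there.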
